A study of Mus musculus with 2 samples.

Results

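S100a8 and S100a9 were followed as a pair of transcripts, chosen by symbol and matched to 2 of the 32286 features of the tables, and the question asked was how the UMIs of the pair divide between the 2 genes, cell by cell and along neutrophil maturation. Their products are small calcium-binding proteins that join into the heterodimer calprotectin, which fills much of the cytosol of neutrophils, binds zinc and manganese and acts as an alarmin when it is released. In bone marrow both genes are switched on as granulocyte progenitors become neutrophils.

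Bone marrow of mice was measured in 2 droplet libraries of 3′ ends of transcripts, 1 per genotype. One genotype, the control, was Mx1Cre+/-;Rosa26+/+. The MYC library came from Mx1Cre+/-;Rosa26LSL-MYC/LSL-MYC, in which Cre removes a stop cassette in front of a MYC transgene. Both genotypes carried Mx1Cre, a Cre driven by an interferon-inducible promoter that is active in blood-forming and other cells, and the labels state neither age nor the number of animals behind a library. With 1 library per group there was no replicate and no test, genotype and library cannot be told apart, and where values come in pairs the control is named first. The 95% intervals hold the error of counting alone.

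The deposited tables held 17073 barcodes and 131884603 UMIs (unique molecular identifiers, counts of captured molecules) in the control, and 14496 barcodes and 110012176 UMIs in the MYC library. After filters 14760 and 12645 cells were kept, with medians of 5321.5 and 6014 UMIs, and 77 barcode sequences of kept cells occurred in both libraries (97 over all barcodes). The feature named MYC had 0 UMIs in the 14760 control cells and 295 UMIs in the MYC library, with at least 1 UMI in 2.16% of cells. Cells fell into 29 clusters, named by markers that did not include S100 genes, and each class name means only that a cluster is like that cell type by those markers. Granulocyte progenitors (555 control and 485 MYC cells) were named from Mpo, Elane, Prtn3, Ctsg and Ms4a3. Immature neutrophils (2126 and 2146) were named from genes such as Camp, Ngp and Ltf, and mature neutrophils (4018 and 3283) from Csf3r, Cxcr2, Mmp8 and Retnlg among others. The 3 stages together are the neutrophil lineage (6699 and 5914 cells). Mature neutrophils came mostly from clusters 1 and 4 in the control and from clusters 6 and 8 in the MYC library. Unnamed clusters held 3321 and 3168 cells, with medians of 867 and 842 UMIs.

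The genes lie close together on mouse chromosome 3 and point towards each other. By the RefSeq annotation of GRCm38.p6, the build the submitters' processing notes also name, S100a8 (ENSMUSG00000056054) lies at chr3:90669071-90670034 on the plus strand and S100a9 (ENSMUSG00000056071) at chr3:90692630-90695721 on the minus strand, with 22595 bases between them. A 30-base stretch of each promoter is shown because the members went together from cell to cell. Each is printed 5′ to 3′ on the strand of its gene, with capitals marking the match to TTNNGNAA, a pattern bound by C/EBP factors, that lies nearest to the RefSeq start. The S100a8 stretch is chr3:90668943-90668972 and the S100a9 stretch is chr3:90695833-90695862.
S100a8: catggacttggTTAGGAAAcagaggctgtg
S100a9: agggctgggaaTTTCACAAaacatcagagc
The match lies 117 to 110 bases before the start of S100a8 and 130 to 123 bases before that of S100a9, where it reads on the opposite strand. Over both strands of the 250 bases before the start, TTNNGNAA had 1 match in S100a8 and 2 in S100a9, and 36.8% of the 32851 promoters of that length in the table held one. GAGGAA, a PU.1-type pattern, had 2 matches in S100a8 and 0 in S100a9 (23.3% of promoters), TATAAA had 1 and 0 (12.4%), and CACGTG, the E-box that MYC can bind, had 0 and 0 (6.02%). No match overlapped another, and a match is only a run of letters.

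The 2 messages were the most abundant of the neutrophil lineage. Summed over its cells, S100a9 ranked 1 and S100a8 ranked 2 among all features in both libraries, and the pair made up 20.4% and 24.4% of all UMIs. As UMIs per 1000000 UMIs of the class (CPM), S100a8 stood at 97323 in control cells and 96952 in MYC cells (log2 ratio MYC over control -0.0055). S100a9 stood at 106829 and 146956 CPM (log2 ratio 0.46). The median log2 ratio of all genes tested there was -0.23. Neither member reached the 1.5-fold limit, which 4.53% of 11643 genes passed upwards and 21% downwards. The higher pair level in the MYC library was thus carried by S100a9, since the summed S100a8 level was nearly equal. Other scalings gave higher ratios and changed the S100a9 call: with median-of-ratios scaling the log2 ratio was 0.26 for S100a8 and 0.72 for S100a9, and as a ratio of median UMIs per barcode 0.46 and 0.83, so that S100a9 was past 1.5-fold in both.

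Within the lineage, S100a8 and S100a9 kept the same order of stages in both libraries. Immature neutrophils had the highest levels, mature neutrophils came next and granulocyte progenitors had the lowest, with counting intervals that did not overlap. In granulocyte progenitors S100a8 had 52631 and 39236 CPM (log2 ratio -0.42, -0.13 with median-of-ratios scaling), and S100a9 had 53290 and 64312 CPM (log2 ratio 0.27). Finer clustering at Leiden resolution 2 left the S100a8 value of progenitors lower (-0.80) and turned that of S100a9 to -0.14, so the level of S100a9 at this stage depended on the clustering. In immature neutrophils S100a8 had 121326 and 112609 CPM (log2 ratio -0.11, but 0.06 with median-of-ratios scaling), and S100a9 had 130523 and 169852 CPM (0.38). In mature neutrophils S100a8 had 95174 and 105309 CPM (0.15), and S100a9 had 110885 and 158273 CPM (0.51). In these classes neither member reached the 1.5-fold limit at any stage, which 4.2% of genes passed upwards and 26.7% downwards in progenitors, 7.95% and 16.7% in immature and 7.96% and 20.1% in mature neutrophils. The limit was passed downwards by S100a8 in progenitors at Leiden resolution 2 (-0.80). In mature neutrophils S100a9 passed it upwards with cells under 5% mitochondrial UMIs (0.65), without the pair in the denominator (0.62), by median-of-ratios scaling (0.72) and by the ratio of medians (0.93), and S100a8 in the last of these (0.60). At Leiden resolution 1, S100a9 was therefore the member with the higher log2 ratio at each stage, and the log2 ratio of S100a8 was below 0 in the 2 earlier stages and above 0 in the last one. Within single clusters the S100a8 order was less regular. Among mature neutrophils it was slightly lower in the MYC library in cluster 1 (82169 and 80056 CPM), cluster 6 (114380 and 113085) and cluster 8 (91965 and 91262), and higher in cluster 4 (107319 and 113204), while the libraries held these clusters in different shares. Among immature neutrophils it was higher in cluster 3 (118160 and 120362 CPM) and lower in clusters 5 (124621 and 111662) and 16 (119753 and 101804).

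**Figure D1:**
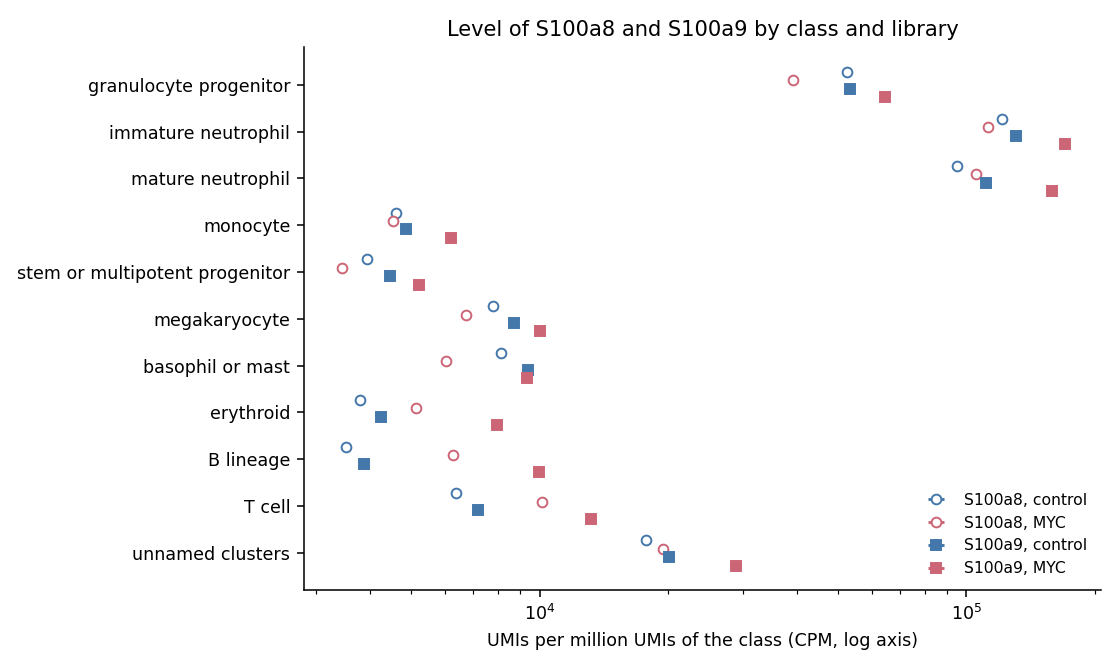
Level of S100a8 (open circles) and S100a9 (filled squares) by class, in CPM on a log axis, for the control (blue) and MYC (red) libraries; bars are 95% counting intervals and are mostly smaller than the points. The 3 neutrophil stages stand at 39236 CPM or more, and the named classes drawn outside the lineage at 13209 CPM or less.

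The share of S100a9 in the pair does not depend on what the counts are scaled to. It set the 2 libraries apart in every class, but classes outside the lineage are not separate observations of this. Of the pair's UMIs in the neutrophil lineage, 52.3% were S100a9 in the control (52.3 to 52.4) and 60.3% in the MYC library (60.2 to 60.3), which is 1.10 and 1.52 S100a9 UMIs per S100a8 UMI. The difference was 7.92 percentage points (7.88 to 7.96). It was 11.8 points in granulocyte progenitors (50.3% against 62.1%), 8.31 points in immature neutrophils (51.8% against 60.1%) and 6.23 points in mature neutrophils (53.8% against 60.0%). By summed UMIs, the control share was higher at each later stage, and the MYC share was highest in progenitors and close to equal in the other 2 stages. The MYC order depended on the measure. As a mean over MYC barcodes with at least 20 UMIs of the pair the share was lowest in progenitors (56.2%, against 59.9% in immature and 60.1% in mature neutrophils). The medians over those barcodes were 60.9%, 60.3% and 60.9%. The share was higher in the MYC library in 8 of 8 neutrophil lineage clusters, by 5.64 to 11.8 points. Clusters 1 and 4, which held most mature neutrophils of the control, differed by 6.29 and 5.64 points, and clusters 6 and 8, which held most of those of the MYC library, by 6.26 and 8.30 points.

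The share was higher in the MYC library also in 19 of 19 other clusters with at least 20 cells in each library, by 3.74 to 10.0 points. Of these, 7 were unnamed and need not lie outside the lineage, among them cluster 28, which scored highest for mature neutrophil markers. Named classes outside the lineage differed in the same direction, by unequal amounts. Among monocytes, cells of the other main myeloid line, it was 51.4% and 57.7%. Erythroid cells had 52.9% and 60.7%, stem or multipotent progenitors 53.1% and 60.3%, the B lineage 52.4% and 61.4%, and T or NK cells 52.9% and 56.6%. Over named non-neutrophil classes with at least 50 cells the share spanned 51.4% to 53.6% in 10 classes of the control and 56.6% to 62.3% in 9 classes of the MYC library, so the ranges of the libraries did not overlap. Barcodes left out of the classes had it too: 51.4% and 59.7% in barcodes with 10% or more mitochondrial UMIs, and 52.8% and 60.1% in called doublets. RNA from neutrophils would carry its library's share into any barcode, so these clusters and classes are not separate observations. In control B lineage cells S100a8 and S100a9 stood at 3.62% and 3.64% of their neutrophil level, within 3.18% to 4.44% for other neutrophil genes. Control erythroid cells had 3.91% and 3.99%, within 3.27% to 4.77%. How much of the pair outside the lineage is RNA from neutrophils was not tested.

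**Figure D2:**
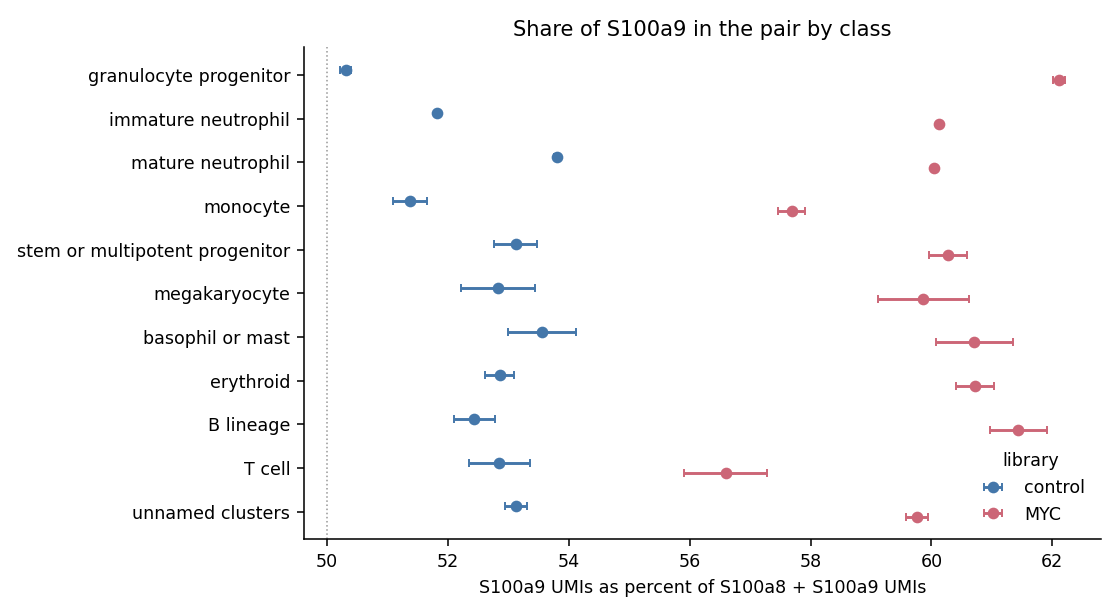
S100a9 UMIs as a percent of S100a8 plus S100a9 UMIs by class, with the B lineage pooled and macrophages and plasmacytoid dendritic cells not drawn, and with 95% counting intervals, control in blue and MYC in red. The control points drawn lie between 50.3% and 53.8%, and the MYC points drawn between 56.6% and 62.1%.

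Per barcode, the balance was narrow in immature and mature neutrophils and wide in progenitors. Over barcodes with at least 20 UMIs of the pair, the median S100a9 share in the neutrophil lineage was 53.0% in the control (quartiles 50.6% and 55.5%, 6664 barcodes) and 60.7% in the MYC library (58.4% and 62.7%, 5911 barcodes). S100a9 outnumbered S100a8 in 79.6% of control barcodes and in 94.3% of MYC barcodes. The SD of the share was 4.88 points in mature neutrophils of the control, where counting alone would give 2.90, and 5.89 points against 2.13 in the MYC library. In immature neutrophils it was 3.61 against 1.84 points, and 4.93 against 1.93. In granulocyte progenitors it was 12.3 points against 3.36 in the control and 11.9 against 3.45 in the MYC library. The low tail made the progenitors wide: the lowest 5% of their barcodes held under 16.1% S100a9 in the control and under 28.4% in the MYC library, while the medians were 49.1% and 60.9%. In the B lineage the SD was close to what counting gives, with 9.56 against 9.34 points in the control and 8.10 against 7.91 points in the MYC library, but 6.64 against 2.37 and 3.38 against 1.82 over the 45 and 16 barcodes with at least 100 UMIs of the pair. Monocytes had 10.8 against 8.91 points in the control and 10.5 against 7.50 in the MYC library. Over the 83 and 134 monocyte barcodes with at least 100 UMIs of the pair the SD was 12.1 against 2.67 points and 14.3 against 2.82, as wide as the 11.8 and 11.6 points of progenitors at that limit, with lower quartiles of 45.7% and 38.3%.

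The low tail of the progenitors lay at their earliest end. When granulocyte progenitors were put in 5 groups of equal size by Camp, a secondary granule gene that comes on as they leave the promyelocyte stage, S100a8 was ahead of S100a9 in the lowest group and S100a9 reached or passed it later. In the control the lowest group (111 barcodes) had a median of 64 S100a8 UMIs (quartiles 22.5 and 178) and 21 S100a9 UMIs (14 and 35.5), and only 14.4% of its barcodes held more S100a9 than S100a8. Group 2 had medians of 239 and 111 UMIs, group 3 had 869 and 894, and the highest 2136 and 2223. The summed S100a9 share over the 5 groups was 33.0%, 40.9%, 50.4%, 51.6% and 51.1%. The MYC library followed the same course at higher shares. Its lowest group (97 barcodes) had medians of 60 S100a8 and 32 S100a9 UMIs, its highest 1499 and 2495, and the shares were 48.5%, 57.2%, 62.6%, 62.9% and 62.8%. More S100a9 than S100a8 was held by 39.2% of the MYC barcodes of the lowest group and by 50.5% of those of group 2. The median B lineage or erythroid barcode held 12 S100a8 and 13 S100a9 UMIs in the control, and 15 and 23 in the MYC library, not far below the S100a9 medians of the lowest group. With those numbers taken off each barcode the lowest shares were 30.4% and 46.0%. The groups were drawn after the values had been seen, and Camp follows S100a8 in these cells (Spearman rho 0.90 over 550 control and 0.82 over 478 MYC barcodes). Put in order by Mpo, Elane, Prtn3 and Ctsg, the primary granule genes, the share went from 39.0% in the group with the most of these messages to 51.0% in that with the least in the control, and from 52.8% to 63.1% in the MYC library.

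**Figure D3:**
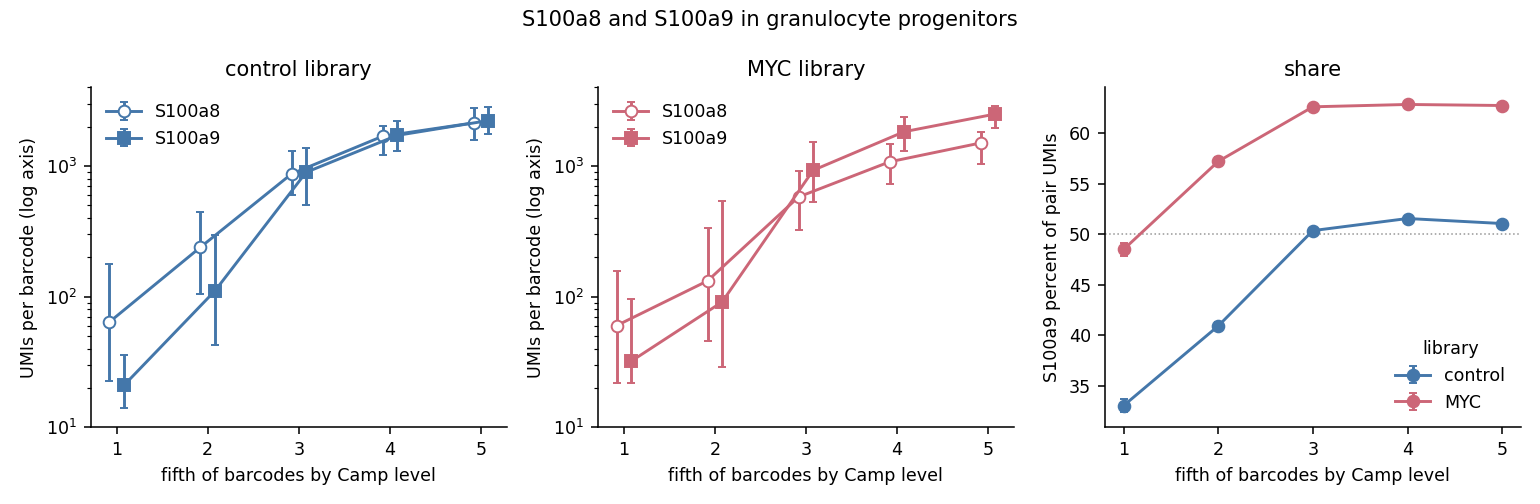
Median S100a8 (open circles) and S100a9 (filled squares) UMIs per barcode, with quartiles as bars, on a log axis, in 5 equal groups of granulocyte progenitors by Camp level for each library, and at right the summed S100a9 share with 95% counting intervals. S100a8 leads in groups 1 and 2 of both libraries by median UMIs, and the share levels off from group 3 at 50.4% to 51.6% in the control and 62.6% to 62.9% in the MYC library.

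Along maturation both levels were lowest at the start and highest early on, while the balance differed by only a few points between bins. Neutrophil lineage barcodes of both libraries were put in 10 bins by a score of late genes (Csf3r, Cxcr2, Mmp8, Mmp9, Retnlg, Ccl6) minus early genes (Mpo, Elane, Prtn3, Ctsg, Ms4a3), which holds no S100 gene. In the control S100a8 was at 56613 CPM in bin 1, 125728 CPM in bin 3 and 91537 CPM in bin 10, and S100a9 at 57524, 134045 and 105883 CPM. In the MYC library S100a8 was at 49736, 119991 and 89194 CPM in those bins, and S100a9 at 80965, 177427 and 140678 CPM. By this score both members peaked in bin 3 in both libraries, where the pair made up 26.0% and 29.7% of UMIs. With late genes alone the peak was less sharp, and control S100a9 (120789 CPM) and MYC S100a8 (114350 CPM) were highest in bin 5. The control share went from 50.4% in bin 1 to 53.9% in bin 7 and stood at 53.6% in bin 10. In the MYC library the share was 61.9% in bin 1, 59.3% in bin 4 and 61.2% in bin 10. The last bin minus the first was 3.23 points in the control and -0.75 points in the MYC library, and the second of these was 0.30 points when late genes alone set the score. The libraries were nearest to each other in bins 5 and 6 (53.4% against 59.5% and 53.8% against 59.7%) and furthest apart in bin 1.

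**Figure D4:**
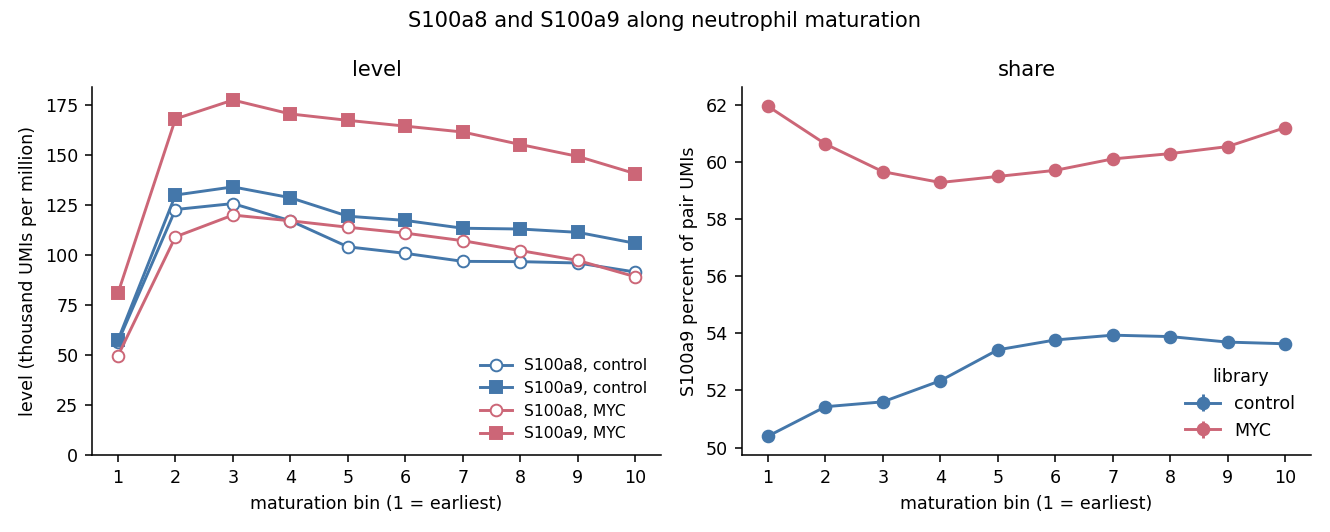
Level in units of 1000 CPM (left; S100a8 open circles, S100a9 filled squares) and S100a9 share of the pair (right, with 95% counting intervals) in 10 bins of a maturation score, control in blue and MYC in red. Both genes peak in bin 3, and the share differs between libraries in each of the 10 bins.

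The 2 messages went up and down together from cell to cell, most closely in progenitors. After each barcode was thinned to 2000 UMIs, Spearman's rho between S100a8 and S100a9 was 0.87 over 6216 control barcodes of the lineage and 0.72 over 5466 MYC barcodes, a description with no test, since barcodes share a library and a fixed total makes 2 abundant genes compete. For Camp and Ngp, a pair of secondary granule genes, rho was 0.83 and 0.80, which is below the S100 pair in the control and above it in the MYC library, and for S100a8 and Actb it was -0.05 and 0.09. By stage the rho of the pair was 0.97 and 0.97 in granulocyte progenitors, 0.72 and 0.61 in immature neutrophils, and 0.88 and 0.65 in mature neutrophils. In immature neutrophils Camp and Ngp had -0.08 and 0.11, and in mature neutrophils 0.81 and 0.82. S100a8 and Retnlg, a gene of late neutrophils, had 0.37 in mature control neutrophils and -0.07 in those of the MYC library, and S100a9 and Retnlg had 0.37 and -0.01. The rho of mature neutrophils was lower in the MYC library also without thinning (0.92 and 0.75).

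A few MYC neutrophils held far more S100a8 than S100a9. Among immature and mature neutrophils with at least 200 UMIs of the pair, 13 of 5026 barcodes of the MYC library (0.259%, 0.138 to 0.442) had an S100a9 share under 20%, and 0 of 5446 control barcodes did, which allows a share of up to 0.0551% by the rule of 3 counts and 0.0677% by the Clopper-Pearson interval used for the MYC share. These 13 barcodes held a median of 909 S100a8 UMIs (295 to 1987) and 44 S100a9 UMIs (18 to 417). At the other end, 32 MYC barcodes and 1 control barcode had a share over 70%. The limits were chosen after the values had been seen, and in granulocyte progenitors, where S100a8 led in the lowest groups, the order was the other way round, with 18 of 437 control and 1 of 361 MYC barcodes under 20%.

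**Figure D5:**
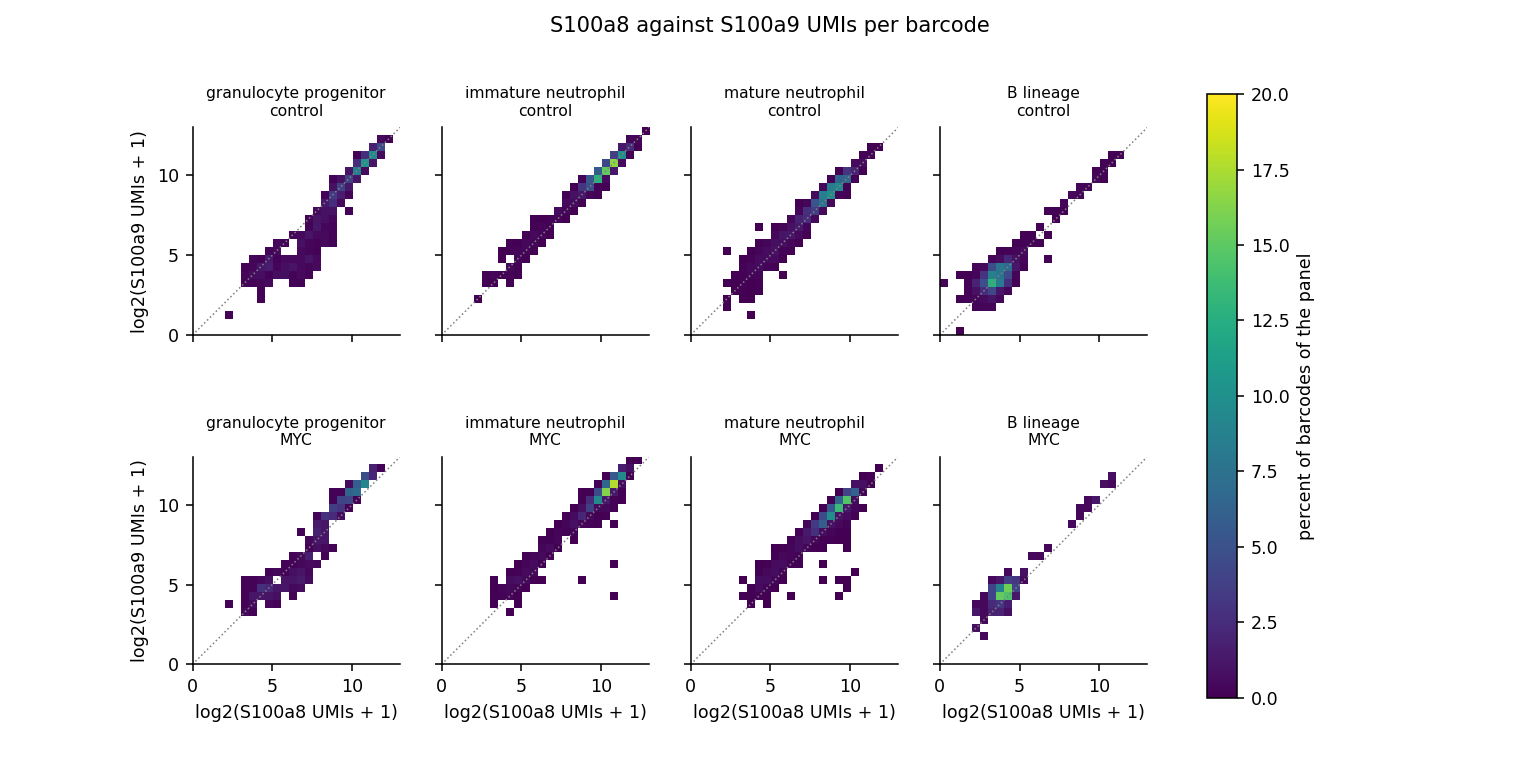
S100a8 against S100a9 UMIs per barcode, each as log2(UMIs + 1), in 4 classes (columns) and 2 libraries (rows); colour is the percent of the panel's barcodes and the dotted line marks equal counts. In the lowest Camp group of progenitors, 14.4% of control and 39.2% of MYC barcodes lie above the line. Of MYC neutrophils with at least 20 UMIs of the pair, 96.8% of immature and 95.2% of mature ones lie above it. Most B lineage barcodes form a cloud at low counts of both genes.

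Outside the neutrophil lineage both members were found in nearly every barcode and the medians per barcode were low and even; how much of this is RNA from neutrophils was not tested. The median barcode held 9 (mature B) to 15 (stem or multipotent progenitor) S100a8 UMIs over 10 named classes of the control, although the median depth of these classes went from 4459.5 to 21263 UMIs. In 9 classes of the MYC library it held 14 to 18 S100a8 UMIs, and the S100a9 medians were 10 to 16 UMIs in the control and 21 to 25 in the MYC library. The ranges of the libraries overlapped for S100a8 and did not for S100a9. A UMI of S100a8 was found in 99.8% of control B lineage cells and in 100% of control neutrophil lineage cells, at median depths of 5206 and 5318 UMIs, and detection did not separate them. The control B lineage level was 3.62% of the neutrophil level for S100a8 and 3.64% for S100a9, inside the 3.18% to 4.44% of 8 other neutrophil genes (Camp, Ngp, Ltf, Lcn2, Retnlg, Chil3, Wfdc21 and Ifitm6). In the MYC library it was 6.47% and 6.80% beside 5.95% to 8.27%. Erythroid cells had 3.91% and 3.99% in the control beside 3.27% to 4.77%, and 5.30% and 5.41% in the MYC library beside 4.01% to 6.999%. Over the few cells without a Camp or Ngp UMI the levels were lower: 1.41% and 1.48% in 15 control B lineage cells, 1.47% and 1.30% in 4 MYC ones, 0.747% and 0.890% in 6 control erythroid cells and 2.40% and 2.51% in 2 MYC ones. Monocytes had 4.74% and 4.56% in the control and 4.69% and 4.22% in the MYC library, while Chil3 stood at 29.5% and 30.3% of its neutrophil level there. By this measure monocytes held more of the pair than B lineage and erythroid cells did in the control, and less in the MYC library. Both orders rested in part on a few barcodes. Without those in which the pair made up 10% or more of UMIs, S100a8 had 2947 CPM in control monocytes, 2341 in B lineage and 2857 in erythroid cells, and S100a9 had 3007, 2610 and 3209 CPM. In the MYC library S100a8 had 3164, 3057 and 2732 CPM, and S100a9 had 4125, 4811 and 4122 CPM.

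A handful of barcodes carried most of the pair in these classes. The 5% of barcodes with the most pair UMIs held 68.9% and 76.6% of those of the B lineage, and 73.4% and 66.5% of those of monocytes. In the B lineage S100a8 had 3527 and 6275 CPM (log2 ratio 0.83), and S100a9 had 3889 and 9998 CPM (1.36), so 2 of 2 members were past the 1.5-fold limit, which 7.67% of all genes tested there passed upwards. Without the barcodes in which the pair made up 10% or more of UMIs (11 control and 7 MYC barcodes) S100a8 stood at 2341 and 3057 CPM and S100a9 at 2610 and 4811 CPM. S100a8 was then no longer past the limit, and S100a9 still was. Relative to the neutrophil level the rise was not particular to the pair. The 8 other neutrophil genes stood at 3.18% to 4.44% of that level in control B lineage cells and at 5.95% to 8.27% in MYC ones. With called doublets kept, the log2 ratios of the B lineage were -0.11 and 0.36. The B lineage also had another make-up in each library, with 475 and 18 B progenitors, 500 and 141 mature B cells and 252 and 91 plasma cells. In T or NK cells (393 and 156 cells) S100a8 had 6387 and 10130 CPM (log2 ratio 0.67) and S100a9 7160 and 13209 CPM (0.88), both past the limit that 9.12% of genes passed, and without such barcodes 2516 and 4438 CPM and 2777 and 5817 CPM. With doublets kept the T or NK log2 ratios were -0.42 and -0.13. The 8 other neutrophil genes stood at 5.46% to 7.39% of their neutrophil level in control T or NK cells and at 8.03% to 12.9% in MYC ones. In erythroid cells S100a9 had 4262 and 7943 CPM (0.90), past the limit that 13.6% of genes passed, and S100a8 had 3801 and 5138 CPM (0.44). Without such barcodes S100a9 had 3209 and 4122 CPM (0.36), which is no longer past the limit, and S100a8 had 2857 and 2732 CPM (-0.065). With cells under 5% mitochondrial UMIs the erythroid log2 ratios were 0.10 for S100a9 and -0.31 for S100a8. The erythroid class also lay in different clusters: cluster 11 held 795 of 1133 control and 198 of 444 MYC cells, and there S100a8 was at 3709 and 1858 CPM and S100a9 at 4155 and 2481 CPM, both lower in the MYC library. Both were higher there in cluster 20 (S100a8 2840 and 4110 CPM, S100a9 3277 and 6496) and in cluster 24 (S100a8 22468 and 30006 CPM, S100a9 23714 and 47646).

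Over 9 classes and 2 libraries, taken as 18 points, the gene most like S100a8 by Pearson's r of log2(CPM + 1) was Wfdc21 (0.996), then S100a9 (0.993), Itgb2l (0.991), Ngp (0.984) and Abca13 (0.983), among 3163 genes. For S100a9 they were S100a8 (0.993), Wfdc21 (0.990), Itgb2l (0.982), Mapk13 (0.981) and Abca13 (0.975). The points come from 2 libraries, and this is a description only.

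Among 20 genes around the pair, the share that stood apart between libraries in the neutrophil lineage was close to that of all genes. The list holds receptors and partners of the proteins, transcription factors of the myeloid S100 genes and enzymes tied to the dimer. Of 20 genes tested, 1 was higher by the 1.5-fold limit and 4 were lower, beside 4.53% and 21% of all genes, and the list's median log2 ratio of -0.23 equalled that of all genes. The higher one was Cebpb, a C/EBP factor of emergency granulopoiesis (236 and 359 CPM, log2 ratio 0.61, interval 0.57 to 0.64). The lower ones were Cebpa, a C/EBP factor of early granulocyte commitment (29.1 and 14.7 CPM, log2 ratio -0.99), Alox5, which starts leukotriene synthesis (149 and 90.9 CPM, -0.72), the transglutaminase Tgm2 (4.58 and 2.74 CPM, -0.74) and the scavenger receptor Cd36 (1.75 and 1.10 CPM, -0.66). Cebpe and Spi1, which drive neutrophil differentiation, had log2 ratios of 0.03 and 0.09, and the receptor Tlr4, which calprotectin can activate, had -0.55. By stage, 1 was higher and 5 lower of 17 tested in progenitors (4.2% and 26.7% of all genes). In immature neutrophils it was 2 and 3 of 18 (7.95% and 16.7%), and in mature ones 1 and 4 of 20 (7.96% and 20.1%). Tlr4 was among the lower ones in progenitors (-0.96) and immature neutrophils (-0.71). In monocytes 18 of the 20 had enough UMIs, 1 was higher (Cd33, 0.63) and 3 were lower (Cybb, Alox5 and Cd36, -0.81, -1.36 and -1.62), where 9.65% and 17.1% of all genes passed the limit.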

How the data were processed

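The values used were the deposited whole-number UMI counts per feature and barcode of 2 libraries, and per the file headers Cell Ranger 6.0.0 produced them; the submitters' processing notes also name Seurat and GRCm38. No cell annotation was used. The members and gene lists were chosen with earlier results of these data known. Cells with at least 500 UMIs, 200 genes and under 10% mitochondrial UMIs were kept, and Scrublet in scanpy 1.11.5 removed 701 (4.53%) and 251 (1.95%) doublets at an expected rate of 0.8% per 1000 barcodes, so doublets remained. Both libraries were clustered together (2000 variable genes without S100 genes, 30 components, 15 neighbours, Leiden resolution 1). A cluster was named from 3 or more detected markers with 1 among its 10 leading genes. Counts were summed per class and library. Intervals are Poisson, Clopper-Pearson, conditional binomial or Newcombe intervals at 95%. A gene was called at 1.5-fold with an interval that excludes 1 and at least 50 UMIs. Named were the pair, the listed genes past the limit, 8 neutrophil genes and the 5 genes most like each member; Cebpe, Spi1 and Tlr4 were added after their values were seen. The calling and thinning were tested on simulated counts. Promoters came from RefSeq (GRCm38.p6), matching 2 of 2 members. A 3′ count compares levels of 1 gene, and the S100a9 share also holds any difference in how the 2 messages are captured, which is the same for both libraries only if they were prepared alike.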

Additional observations from a re-analysis of the deposited data

Results flagged for a closer look

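The log2 ratio of S100a8 between the MYC and control libraries had opposite signs in different classes, and with 1 library each the difference between classes was not tested. The ratio was -0.42 in granulocyte progenitors and -0.11 in immature neutrophils but 0.15 in mature neutrophils. The immature value was 0.056 by median-of-ratios scaling and 0.096 by the ratio of medians, and within mature clusters 1, 6 and 8 S100a8 was slightly lower in the MYC library. Outside the lineage it was -0.021 in monocytes, -0.19 in stem or multipotent progenitors and -0.43 in basophils or mast cells, and 0.44 in erythroid cells, 1.21 in mature B cells, 0.67 in T or NK cells and 0.83 in the B lineage. With doublets kept it was -0.54 in mature B cells, -0.42 in T or NK cells and -0.11 in the B lineage, and with cells under 5% mitochondrial UMIs it was -0.31 in erythroid cells. The negative values outside the lineage turned as well, to 0.75 in stem or multipotent progenitors at Leiden resolution 2, and by the ratio of medians to 0.47 in monocytes and 0.42 in basophils or mast cells. The sign held over 11 alternatives in granulocyte progenitors (-0.80 to -0.13) and over 11 in mature neutrophils (0.094 to 0.60). Barcodes that entered no class differed in the same direction: in the MYC library S100a9 made up 59.7% of the pair in barcodes with 10% or more mitochondrial UMIs, where the control had 51.4%, and 60.1% in called doublets, where the control had 52.8%. These barcodes come from the same 2 libraries, and called doublets held 66915 and 71354 S100a8 CPM. Their share is therefore not a separate observation.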

How the results depend on the processing

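No paired analysis was possible because each genotype had 1 library, and for the same reason no library could be left out. Over 13 classes the S100a9 share was higher in the MYC library in 106 of 106 alternative values (3.27 to 12.05 points). The 13 classes overlap, since the neutrophil lineage stands beside its 3 stages and the B lineage beside mature B and plasma cells. All of these values come from the same 2 libraries and are not separate observations. The difference in granulocyte progenitors was 11.2 points at Leiden resolution 2, 10.6 under the 5% mitochondrial limit, 12.01 as a mean over barcodes and 12.05 with free RNA taken off. For these class differences free RNA was the mean UMIs per barcode of B lineage and erythroid cells, not the median used for the Camp groups. In immature neutrophils it was 7.79 at Leiden resolution 0.5, 8.52 at resolution 2, 7.97 with each library clustered alone, 7.73 under 5% mitochondrial UMIs, 8.06 with at least 1000 UMIs and 500 genes, 8.03 with classes from marker scores and 7.60 as a mean over barcodes. In mature neutrophils it was 7.02 at resolution 0.5, 6.65 clustered alone, 6.13 under 5% mitochondrial UMIs, 6.44 from marker scores and 5.95 with free RNA off. In the lineage it was 7.82 under 5% mitochondrial UMIs and 7.11 as a mean over barcodes. The log2 ratios of S100a8 and S100a9 in the lineage were -0.011 and 0.45 at resolution 0.5, -0.074 and 0.39 at resolution 2, 0.051 and 0.52 clustered alone, -0.079 and 0.38 under 5% mitochondrial UMIs, -0.00081 and 0.46 with at least 1000 UMIs, -0.0096 and 0.45 with doublets kept, -0.078 and 0.39 from marker scores, 0.068 and 0.53 without the pair in the denominator, 0.067 and 0.48 averaged per cell, 0.26 and 0.72 after scaling by median of ratios, and 0.46 and 0.83 as a ratio of medians. With doublets kept, the log2 ratios turned to -0.54 (S100a8) and -0.17 (S100a9) in mature B cells, -0.42 and -0.13 in T or NK cells, -0.11 (S100a8) in the B lineage, -0.70 (S100a9, 0.23 otherwise) in stem or multipotent progenitors, where S100a8 was -0.999, and -0.016 (S100a9, 0.35 otherwise) in monocytes; the cause was not tested. The rho of the pair was 0.91 and 0.80 (control, MYC) without thinning, and 0.92 and 0.84 when thinned on the other genes. The share of the last maturation bin minus the first was 2.68 (control) and -0.32 points (MYC) with 5 bins, and 2.71 and 0.30 with late genes alone. The highest minus the lowest Camp group, 18.03 and 14.3 points, was 12.006 and 10.3 when ordered by primary granule genes, 20.7 and 16.8 with free RNA off at the median barcode, and 20.9 and 19.2 as medians per barcode. At 2-fold 0 listed genes were higher and 0 lower in the lineage, where no test could be made with 1 library each.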

Other observations

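In the MYC library 10 immature and 22 mature neutrophil barcodes with at least 200 UMIs of the pair had an S100a9 share over 70%, beside 0 and 1 in the control. The lowest share of any such barcode was 1.35% in immature and 2.63% in mature neutrophils of the MYC library, and 30.6% and 29.6% in the control. Stem or multipotent progenitors in 5 equal groups by Mpo, Elane, Prtn3 and Ctsg gave no readable balance: the group with the most of these messages had medians of 19 S100a8 and 19 S100a9 UMIs in the control and 19 and 25 in the MYC library. In the same grouping of monocytes, the group with the most had medians of 18 S100a8 and 15 S100a9 UMIs in the control, where 46.3% of barcodes held more S100a9, and 20 and 27 in the MYC library. These medians lie close to the 12 and 13 UMIs (control) and 15 and 23 UMIs (MYC) of the median B lineage or erythroid barcode. Of the 8 neutrophil genes used as a yardstick, Ifitm6 (log2 ratio 0.80) and Retnlg (0.63) stood higher above control in the neutrophil lineage than S100a9 did, and Ngp (-0.39) and Ltf (-0.38) stood lowest.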
